A study of Mus musculus with 2 samples.

Results

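The enzymes of glycolysis and of the pentose phosphate pathway, with the membrane carriers that bring glucose in and take lactate out, were followed here through 32 genes in an erythroid progenitor line. The members were listed by symbol, 22 for glycolysis and lactate formation, 7 for the pentose phosphate pathway and 3 for transport, and all 32 were found among the 43346 genes of the deposited gene tables. Of these, 27 were detected, meaning a level of at least 1 TPM (a transcript level corrected for length and scaled to a fixed sum per library) in both libraries. The 5 members that did not reach it were Hk3, Aldoc, Pgam2, Eno2 and Ldhb.

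Glycolysis splits glucose into pyruvate and yields ATP, and lactate dehydrogenase turns pyruvate into lactate so that NAD is renewed. The pentose phosphate pathway branches off at glucose phosphate, makes NADPH in its oxidative arm and ribose for nucleotides in its non-oxidative arm. Several steps can be run by more than 1 gene product (isoenzymes), and tissues differ in which one they use. Mature red cells have no mitochondria, rely on glycolysis for ATP, and divert part of the flow through bisphosphoglycerate mutase, whose product lowers the oxygen affinity of haemoglobin.

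The series holds 1 group, G1E, an immortalised mouse cell line labelled as a Gata1- erythroid progenitor (strain C57BL/6J, male, postnatal, age given as 0 day). Gata1 encodes the transcription factor that drives erythroid maturation, and G1E cells are known to have come from Gata1-null embryonic stem cells differentiated in culture, so the model is 1 line grown in vitro with no wild-type counterpart here. Each of 2 biological replicates gave 1 library, made from 1 ng of total RNA of over 200 nucleotides with spike-in transcripts added. With no second condition, levels were described and the 2 libraries were compared with each other, and such a test speaks of these libraries only.

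Replicate 1 had 31649878 expected counts and replicate 2 had 40597614. Nuclear protein-coding genes took 26.9% of the first and 18.9% of the second. Gata1 itself was counted in both, with 798 and 649 counts (21.96 and 12.5 TPM), and whether those reads form a complete transcript cannot be read from the gene table. All 9 erythroid progenitor markers reported here, such as Kit, Rhag, Gfi1b and Tfrc, were detected in both libraries, with a summed level of 684 and 459 TPM. The libraries stood apart in late erythroid genes. A gene was called between libraries when a two-sided exact binomial test on its counts, scaled by TMM, had a Benjamini-Hochberg adjusted p under 0.05 and the ratio was at least 2-fold. All 9 late erythroid markers reported here were called higher in replicate 2, namely the globin genes Hba-a1, Hba-a2, Hbb-bs and Hbb-bt with Slc4a1, Alas2, Rhd, Aqp1 and Epb42. Slc4a1, the red cell anion exchanger, had 115 and 10387 counts. They had a summed level of 153 TPM in replicate 1 and 1513 in replicate 2, while 5.08% of 11902 genes were called in that direction and 2.22% in the other. In bulk RNA, more cells of a late stage and more of these transcripts per cell cannot be told apart. Of 10 liver markers 9 had 0 counts (summed level 0.1 and 0 TPM), as had 8 of 10 neuronal markers (0.14 and 0.11 TPM) and 7 of 10 muscle markers (3.99 and 2.75 TPM, mostly Des with 3.96 and 1.74). Granulocyte and macrophage markers were near 0 (1.48 and 0.56 TPM), though Cd68 (17 and 1 counts) was called higher in replicate 1 and Adgre1 (1 and 15 counts) higher in replicate 2. TPM values ran lower in replicate 2, where nuclear protein-coding genes took the smaller part, with a median log2 ratio of -0.64 for replicate 2 over replicate 1 among detected nuclear protein-coding genes.

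Together the 32 members took 2.23% of the nuclear protein-coding TPM in replicate 1 and 2.14% in replicate 2. Gapdh alone made up 57.3% and 52.6% of that sum. Of the 27 detected members, 21 lay above the median detected nuclear protein-coding gene (7.71 TPM) and 6 below it. In TPM, 27 members were higher in replicate 1, 3 (Slc16a1, Pfkm and Eno2) were higher in replicate 2, and Hk3 and Ldhb were at 0 in both. Detected nuclear protein-coding genes as a whole had the same lean in TPM (median log2 ratio -0.64), so this direction is not particular to the members.

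**Figure D1:**
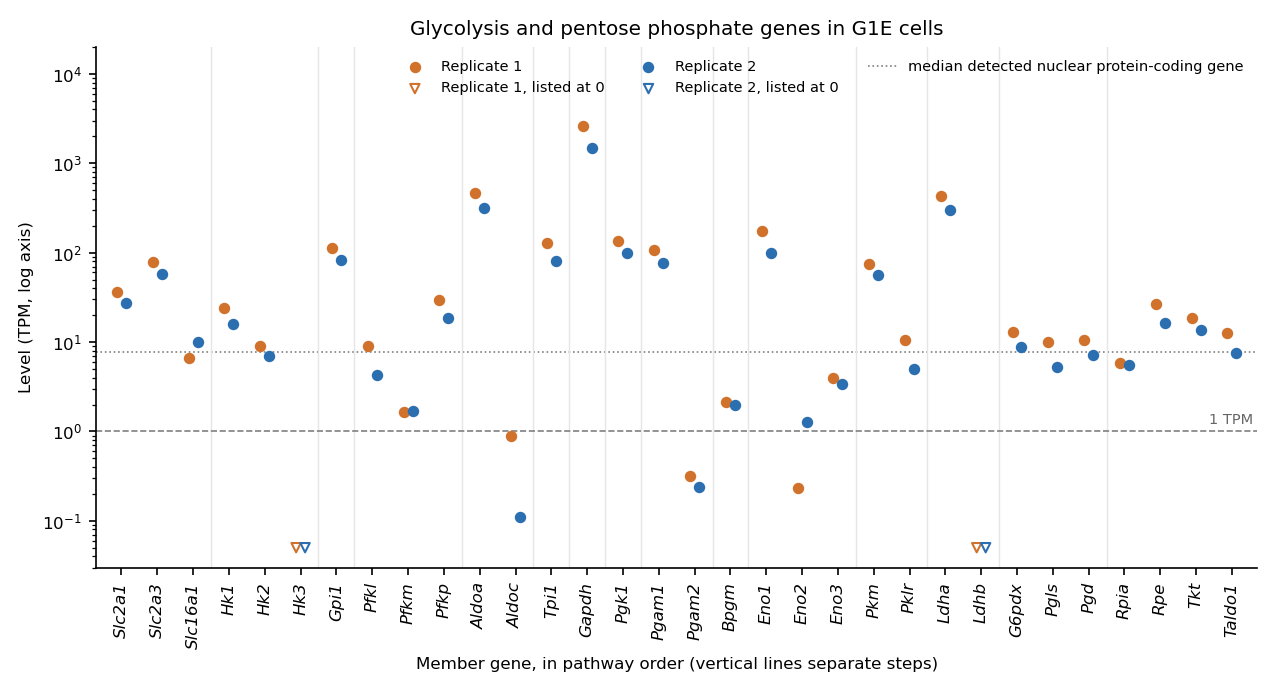
Level of each member in the 2 libraries, in TPM on a log axis, in pathway order. The dashed line is the detection limit of 1 TPM, the dotted line the median detected nuclear protein-coding gene, and open triangles mark genes listed at 0. Gapdh is highest at 2589 and 1468 TPM, and Hk3 and Ldhb are at 0.

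The transport members are a pair of genes for facilitative glucose transporters and 1 lactate carrier gene, which had a lower transcript level. Slc2a3 (ENSMUSG00000003153.6), which encodes the high-affinity carrier GLUT3, had 78.0 TPM in replicate 1 and 57.8 in replicate 2. Slc2a1 (ENSMUSG00000028645.6), which encodes GLUT1, the main carrier of human red cells, had 36.4 and 27.3 TPM. Slc2a3 was therefore above Slc2a1 in both libraries, by 2.14-fold (exact 95% Clopper-Pearson interval 2.03 to 2.26) and 2.11-fold (2.01 to 2.23). These intervals, here and below, cover counting error only. Coding transcripts held 78.0% and 82.7% of the Slc2a3 TPM (60.8 and 47.8 TPM), against 100% for Slc2a1. Over coding transcripts alone Slc2a3 stayed above Slc2a1 in both libraries, by a smaller margin. Slc16a1 (ENSMUSG00000032902.1), which encodes the lactate and proton carrier MCT1, had 6.70 and 10.1 TPM. In TPM it was the only one of the 3 that was higher in replicate 2. After TMM scaling of the counts the ratio of replicate 2 over replicate 1 was 1.17 for Slc2a1, 1.19 for Slc2a3 and 2.33 for Slc16a1.

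Transcripts of other carriers were few, besides those of the partner protein of MCT1. Of 11 other glucose and lactate transporter genes, 2 were detected and 6 had 0 counts. Bsg, the chaperone that brings MCT1 to the membrane, had 155 and 112 TPM, and Slc2a8, an intracellular glucose carrier, had 1.71 and 1.34 TPM. Slc2a4, the insulin-responsive carrier of muscle and fat, had 4 and 99 counts (0.08 and 1.42 TPM). It was the only one of the 5 tested to be called, higher in replicate 2, where 5.08% of all genes were called in that direction.

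Hexokinase, which traps glucose in the cell as its phosphate, came mainly from Hk1. Hk1 (ENSMUSG00000037012.14) had 24.15 and 15.9 TPM, and Hk2, the inducible isoenzyme of growing cells and muscle, had 8.97 and 7.03 TPM. Hk1 thus made up 71.1% ± 2.55 (SD, n = 2) of the hexokinase TPM and stood 2.69-fold (2.47 to 2.93) and 2.26-fold (2.07 to 2.47) above Hk2. Hk3, an isoenzyme of myeloid cells, had 0 counts in both libraries, which allows up to 0.0719 and 0.0521 TPM by counting (3 counts), while the deposited credibility intervals reach 0.905 and 0.668 TPM. Hk2 lay above both limits in each library. Hkdc1, a further hexokinase-like gene, also had 0 counts.

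Hk1 starts from several first exons, and these set the first residues of the enzyme. The general form begins with a stretch that docks it on mitochondria, and red cells are known for a form with another first exon that lacks it. The coding bases before the first exon that these transcripts share are shown from GENCODE M21 on GRCm38, with the start codon in capitals, for the general form (Hk1-202, chr10:62340013-62340075), the form taken here as that of red cells, a name the annotation does not give (Hk1-205, chr10:62342501-62342560) and a form that starts further upstream (Hk1-201, 2 exons within chr10:62353058-62358362), all on the minus strand.
Hk1-202: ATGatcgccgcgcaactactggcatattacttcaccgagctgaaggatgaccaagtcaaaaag
Hk1-205: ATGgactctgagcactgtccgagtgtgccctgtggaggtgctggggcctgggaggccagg
Hk1-201: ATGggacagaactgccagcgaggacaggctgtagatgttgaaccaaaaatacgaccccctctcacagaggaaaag
No bases of these 3 openings come from a shared exon. Hk1-202 had 715 and 676 counts (8.10 and 5.53 TPM), and Hk1-201 had 694 and 555 (9.28 and 5.37 TPM). Hk1-205 had 0 counts in both libraries. Hk1-214, a retained-intron model whose first exon covers 208 bases of the first exon of Hk1-205, had 75.7 and 85.9 counts (1.31 and 1.08 TPM). Hk1-212, a coding model of 896 nucleotides with a further first exon, had 85.2 and 88.8 counts (5.14 and 3.91 TPM). This short model thus held 21.3% and 24.6% of the Hk1 TPM, which enters the Hk1 share above. Transcript counts are the authors' division of reads among overlapping models, and Hk1-201, Hk1-202 and Hk1-205 also end at different bases (62269108, 62268855 and 62269909), so these values rest on more than the first exons.

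Glucose phosphate isomerase, the next enzyme, has 1 gene, Gpi1 (ENSMUSG00000036427.4), with 113 and 82.3 TPM, several times the level of any hexokinase. Phosphofructokinase, the committed and most regulated step, came mainly from the platelet-type gene Pfkp (ENSMUSG00000021196.9). Pfkp had 29.8 and 18.6 TPM, the liver-type Pfkl had 9.02 and 4.29, and the muscle-type Pfkm had 1.67 and 1.70. Pfkp was 3.30-fold (2.99 to 3.65) and 4.34-fold (3.88 to 4.87) above Pfkl, and Pfkl was 5.39-fold (4.32 to 6.77) and 2.52-fold (2.06 to 3.08) above Pfkm, so the order was the same in both libraries. The share of Pfkp was 74.6% ± 1.45 (SD, n = 2) at the gene level. Only 37.2% and 41.2% of the Pfkp TPM lay on coding transcripts, the rest on retained-intron models and, in replicate 2, on a decay target with 2.44%, and over coding transcripts alone the share of Pfkp was 58.8%. Red cells are known to hold both the liver and the muscle subunit.

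Beside phosphofructokinase, the Pfkfb genes and Tigar act on its fructose bisphosphate activator, and Fbp1 and Fbp2 reverse its step. Of these 7 genes 2 were detected, Pfkfb2 (9.83 and 5.67 TPM) and Pfkfb1 (2.08 and 2.62 TPM), both encoding enzymes that make and remove the activator. Of the 7, Pfkfb3, Fbp1 and Fbp2 had 0 counts, and none of the 4 tested was called. Over all genes 5.08% were called higher in replicate 2 and 2.22% higher in replicate 1, so 4 genes are too few to tell a difference from that.

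Aldolase came almost wholly from 1 gene. Aldoa (ENSMUSG00000030695.9), the muscle and red cell aldolase, had 460 and 315 TPM and ranked 40th among nuclear protein-coding genes. Aldoc, the brain aldolase, had 46 and 9 counts (0.89 and 0.11 TPM), so that Aldoa took 99.9% ± 0.112 (SD, n = 2) of the step. Tpi1, which interconverts the triose phosphates, had 129 and 81.0 TPM. Gapdh (ENSMUSG00000057666.14), the NADH-forming dehydrogenase, had 2589 and 1468 TPM and ranked 2nd. Pgk1, the first ATP-forming enzyme, had 136 and 99.1 TPM. Pgam1, the mutase of most tissues, had 106.8 and 76.5 TPM, against 0.32 and 0.24 TPM (5 counts in each library) for the muscle gene Pgam2, and took 99.7% ± 0.00995 (SD, n = 2) of the mutase TPM.

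Part of the Gapdh level lay on short models. Gapdh-206, a retained-intron model of 565 nucleotides, carried 35.2% of the Gapdh TPM in replicate 1 and 25.4% in replicate 2, and coding transcripts had 1577 and 1014 TPM. Processed copies elsewhere in the genome also shared its reads. In a BLAST search of GENCODE M21 transcripts (at least 95% identity over 200 bases), Gapdh had 77 such copies, to which the authors' counting had assigned 1174 and 1121 counts, 2.39% and 2.75% of its own. For Pgk1 the copies held 9.20% and 8.17% of its count, all on Pgk1-rs7 (identical over 1255 bases). Another Pgk1 copy, Gm5537, identical over 1252 bases, had 0 counts. For Pgam1 the copy Pgam1-ps2 (identical over 765 bases) held 16.1% and 11.98%. The division of reads between these genes and their copies is therefore uncertain. For 23 members, Aldoa, Bpgm, Pklr and both Slc2a genes among them, no copy passed this limit.

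Bpgm (ENSMUSG00000038871.5, chr6:34476207-34505613), the erythroid mutase of the haemoglobin shunt, was present at a low level. It had 45 counts in replicate 1 and 115 in replicate 2, and 2.16 and 1.95 TPM. On the log2 scale with 1 TPM added, the difference of Bpgm minus its glycolytic paralog Pgam1 was -4.90 ± 0.27 (SD, n = 2), from -5.09 and -4.72 in the 2 libraries. Per length, Pgam1 was 49.4-fold (36.8 to 67.8) and 39.3-fold (32.6 to 47.7) above it. The gene-level TPM joined different models. The full-length coding transcript Bpgm-201 had 14.7 and 112 counts (0.33 and 1.82 TPM), while in replicate 1 the 596-nucleotide Bpgm-205 carried 64.9% of the TPM on 14.35 counts (0 in replicate 2). For Bpgm-201 alone the ratio of replicate 2 over replicate 1 was 8.37 (4.86 to 15.5), and its difference to Pgam1 on the same log2 scale was -5.56 ± 1.10 (SD, n = 2).

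Enolase came from Eno1 (ENSMUSG00000063524.9), the general isoenzyme, with 173 and 97.9 TPM. The muscle gene Eno3 had 3.97 and 3.39 TPM, and the neuronal gene Eno2 had 0.23 and 1.26 TPM on 11 and 19 counts. Eno1 took 96.5% ± 1.53 (SD, n = 2) of the TPM of the 3 enolase members. In replicate 2, 96.9% of the Eno2 TPM lay on a 565-nucleotide decay target, and the coding transcripts Eno2-201 and Eno2-202 had 3.11 and 0 counts there. Eno1 has a near-identical protein-coding copy, Eno1b (99.5% identity over 1736 bases), which held 1679 and 1440 counts beside 4588 and 4086 for Eno1. Eno1b is not a member, so the share above leaves it out, though its counts were above those of Eno3 (79 and 84). Of the Eno1 TPM, 54.7% and 67.2% lay on coding transcripts.

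Pyruvate kinase, the last ATP-forming enzyme of glycolysis, was split between its genes. Pkm (ENSMUSG00000032294.12, chr9:59656368-59679375) had 73.7 and 56.7 TPM, and Pklr (ENSMUSG00000041237.8, chr3:89136142-89146784), the liver and red cell gene, had 10.7 and 4.95 TPM. Pkm stood 6.91-fold (6.33 to 7.56) above Pklr in replicate 1 and 11.5-fold (10.3 to 12.8) in replicate 2. Its share of the step was 89.7% ± 3.27 (SD, n = 2), and Pklr held 12.6% and 8.02%. Pkm makes 2 enzymes from 1 gene by a choice between a pair of exons of equal length, M1 in muscle and brain and M2 in growing cells. The exons are 372 bases apart. Their sequences are shown in full to set them side by side, with the 64 of 167 positions that differ in capitals (GENCODE M21, GRCm38, plus strand, M1 at chr9:59675029-59675195 and M2 at chr9:59675568-59675734, both coding).
Pkm M1 exon: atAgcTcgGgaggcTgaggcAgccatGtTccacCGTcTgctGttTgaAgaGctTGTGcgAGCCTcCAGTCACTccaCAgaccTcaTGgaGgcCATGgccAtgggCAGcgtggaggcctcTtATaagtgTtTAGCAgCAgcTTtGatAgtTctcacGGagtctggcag
Pkm M2 exon: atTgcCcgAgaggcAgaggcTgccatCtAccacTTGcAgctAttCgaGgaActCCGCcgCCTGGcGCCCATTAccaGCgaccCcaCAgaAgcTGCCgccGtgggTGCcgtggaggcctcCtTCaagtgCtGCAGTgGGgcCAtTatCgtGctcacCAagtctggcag
The exons were 61.7% identical, and differing bases ran along most of their length. Of the 2 Pkm transcripts in the deposited tables, both 2432 nucleotides long, Pkm-201 carries M2 and Pkm-202 carries M1. The exons were read from GENCODE M21, where Pkm-202 is 2041 nucleotides long, so the model the authors counted differs from the one that gave its exon. In GENCODE M21 the 2 models also start at different bases (59656368 for Pkm-201 and 59656573 for Pkm-202). Reads over the exons were not examined, so the division of counts may rest on more than the exon pair. Pkm-201 had 3457 and 3650 counts (70.3 and 53.8 TPM), and Pkm-202 had 168 and 202 (3.42 and 2.97 TPM). Pkm-201, the M2 model, thus held 95.1% ± 0.421 (SD, n = 2) of the Pkm TPM, and Pkm-201 was 20.6-fold (17.6 to 24.2) and 18.1-fold (15.7 to 20.9) above Pkm-202. The libraries differed little in this share, 95.4% and 94.8%.

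Pklr is read from alternative promoters, the upstream one known for the red cell enzyme (R-type) and the downstream one for the liver enzyme (L-type), with first exons whose 5′ ends lie 430 bases apart. Both promoters are shown from the RefSeq promoter table (GRCm38.p6, plus strand), ended at the last base before the annotated transcript start, because the deposited transcript counts were higher for models that start at the second. Capitals mark the motif of GATA factors, AGATAA in this promoter, and GTTANNNNNTAAC, the paired sites of the liver factor HNF1, both searched on either strand. The R-type window is chr3:89135892-89136141 and the L-type window chr3:89136373-89136571.
Pklr R-type promoter: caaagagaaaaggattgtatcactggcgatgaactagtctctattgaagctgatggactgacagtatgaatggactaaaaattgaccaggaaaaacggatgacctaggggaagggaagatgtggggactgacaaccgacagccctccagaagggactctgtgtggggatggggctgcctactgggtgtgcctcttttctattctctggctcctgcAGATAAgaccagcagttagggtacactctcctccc
Pklr L-type promoter: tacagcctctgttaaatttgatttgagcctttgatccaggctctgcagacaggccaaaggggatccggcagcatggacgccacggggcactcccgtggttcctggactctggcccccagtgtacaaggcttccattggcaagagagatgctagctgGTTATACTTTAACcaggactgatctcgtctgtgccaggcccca
The AGATAA begins 35 bases before the start of Pklr-201, and the HNF1 pair begins 43 bases before that of Pklr-202. Transcripts from the downstream first exon had 573 and 351 counts, and those from the upstream one had 3.78 and 10.8. The downstream exon carried 92.8% and 86.9% of the Pklr TPM (89.8% ± 4.18, SD, n = 2). Nearly all of it was Pklr-202, the L-type coding transcript, at 9.67 and 4.30 TPM, while Pklr-201, the R-type coding transcript, had 0 and 0.09 TPM, with an upper bound of 0.428 and 0.388 TPM in the deposited credibility intervals. Pklr-202 also runs 190 bases further at its 3′ end than Pklr-201, so the division rests partly on reads from there and not on the first exons alone. Of 10 liver markers, 9 had 0 counts in both libraries.

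Lactate dehydrogenase transcripts came almost wholly from Ldha. Ldha (ENSMUSG00000063229.10), the form that favours lactate, had 428 and 297 TPM and ranked 47th among nuclear protein-coding genes. Ldhb, the heart form, had 0 counts in both libraries, which allows up to 0.169 and 0.123 TPM by counting (3 counts), while the deposited credibility intervals reach 0.384 and 0.285 TPM. Ldha lay far above both limits in each library. Of the other lactate dehydrogenase genes, Ldhc, the germ-line gene, and Ldhd also had 0 counts, and Ldhal6b had 2 and 7 counts (0.07 and 0.18 TPM).

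**Figure D2:**
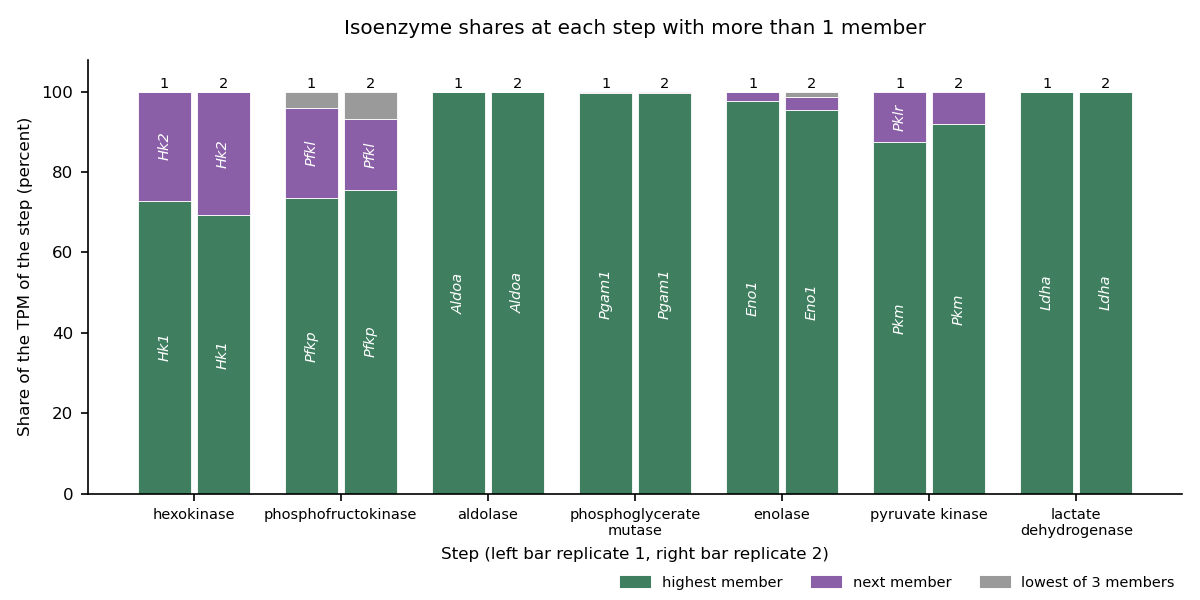
Share of the summed TPM of each step on each of its members, in percent, for the 7 steps with more than 1 member. The left bar is replicate 1 and the right bar replicate 2. The near-identical enolase copy Eno1b is not a member and is not included. Aldoa, Pgam1, Eno1 and Ldha take over 95% of their steps, Pkm 87.4% and 92.0%, and Hk1 and Pfkp between 69.3% and 75.6%.

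**Figure D3:**
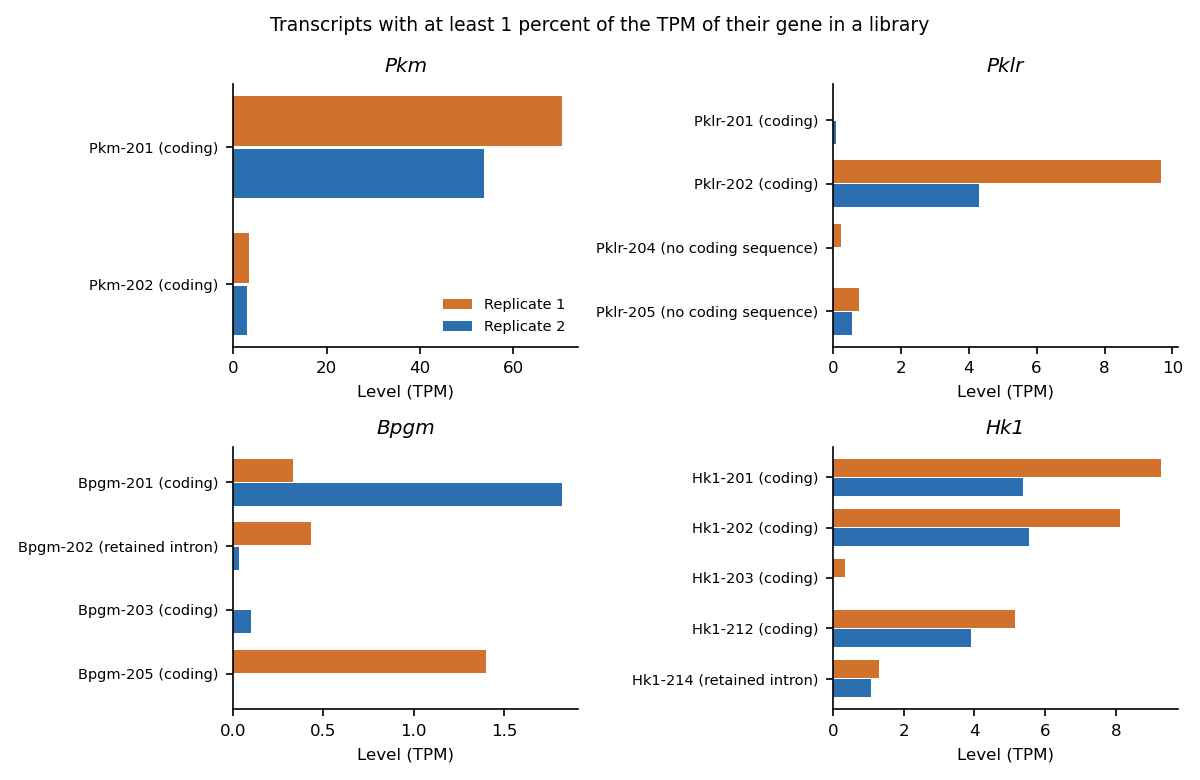
Level in TPM of each Pkm, Pklr, Bpgm and Hk1 transcript with at least 1 percent of the TPM of its gene in a library, for replicate 1 and replicate 2. Pkm-201 (M2 exon) and Pklr-202 (L-type) lead their genes in both libraries, while the leading Bpgm transcript is Bpgm-205 in replicate 1 and Bpgm-201 in replicate 2.

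All 7 pentose phosphate genes were detected, at moderate levels. In the oxidative arm, G6pdx, the first and NADPH-forming dehydrogenase, had 12.8 and 8.71 TPM. Pgls, the lactonase, had 9.91 and 5.32 TPM, and Pgd, the other NADPH-forming dehydrogenase, had 10.45 and 7.11 TPM. The 3 genes lay close together, summing to 33.2 and 21.1 TPM. In the non-oxidative arm, Rpe, the epimerase, was highest with 26.6 and 16.3 TPM, and Tkt, the transketolase, had 18.5 and 13.7 TPM. Taldo1, the transaldolase, had 12.6 and 7.53 TPM, and Rpia, the isomerase that makes ribose phosphate, was lowest with 5.89 and 5.57 TPM. The 4 genes summed to 63.6 and 43.1 TPM.

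The pentose phosphate genes together took 0.0478% and 0.0493% of the nuclear protein-coding TPM. The median pentose phosphate gene had 12.6 and 7.53 TPM and the median glycolysis gene, the undetected isoenzymes included, 17.4 and 11.5 TPM. The difference of the medians on the log2(TPM + 1) scale was -0.39 ± 0.08 (SD, n = 2). That difference depended on the genes and transcripts counted, with -2.61 over detected members only and 0.0597 over coding transcripts only, where its sign turned. The other isoenzyme genes listed for these reactions were silent or low. Of 14 such genes 1 was detected, Rbks (ribokinase, 4.68 and 2.96 TPM), and 9, among them G6pd2, Tktl1 and Tktl2, had 0 counts. Eno1b was not in that list.

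At the exit of glycolysis, 17 of 24 genes of pyruvate use and side branches were detected. The highest were Gfpt1 (hexosamine synthesis, 39.55 and 25.4 TPM), Psat1 (serine synthesis, 34.9 and 19.1 TPM), Dld (a pyruvate dehydrogenase subunit, 33.0 and 20.2 TPM) and Pdk3 (a kinase that switches pyruvate dehydrogenase off, 28.7 and 14.3 TPM). Of the other serine synthesis genes in this list, Psph had 5.47 and 3.28 TPM and Phgdh had 0 counts in both libraries. Pcx, pyruvate carboxylase, had 27 and 159 counts (0.32 and 1.35 TPM). It was the only one of the 21 tested to be called, higher in replicate 2, which is close to the 5.08% of all genes called in that direction.

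Between the libraries, 30 members had the 10 counts needed for a test. Bpgm and Slc16a1 were called higher in replicate 2, 2 of 30 where 5.08% of all 11902 genes were called in that direction, and Aldoc was called higher in replicate 1, 1 of 30 where 2.22% were. These shares are close to the background. A ratio between 0.5 and 2 was found for 27 members, and the share of all genes in that range was not counted. Bpgm had 45 and 115 counts, a ratio of 2.86 (2.01 to 4.14, adjusted p 5.54e-09 by the exact binomial test). That test does not correct counts for length. The effective length of Bpgm, used to turn counts into TPM, was 981 bases in replicate 1 and 2007 in replicate 2. In TPM Bpgm had 2.16 and 1.95, where the median log2 ratio of detected nuclear protein-coding genes was -0.64. The part of this length change in the call was not tested. Slc16a1 had 613 and 1274 counts, all on 1 transcript, a ratio of 2.33 (2.11 to 2.57, adjusted p 6.38e-69 by the same exact test). Aldoc had 46 and 9 counts, a ratio of 0.219 (0.0944 to 0.453, adjusted p 2.35e-05 by the same exact test). Late erythroid markers were called in the same direction as Bpgm and Slc16a1 (summed level 153 and 1513 TPM), and their part in these ratios was not tested. The p-values measure counting error between 2 libraries, not the spread of a condition.

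The abundant enzymes had ratios near 1 between the libraries. The median log2 ratio of the 30 members was 0.12, against -0.00 over all genes tested (-0.41 and -0.52 when scaled to total counts), and 21 members lay above the median of all genes. Gapdh had a ratio of 0.930 (0.918 to 0.943), Eno1 0.998 (0.957 to 1.04), Aldoa 1.06 (1.033 to 1.084), Ldha 1.07 (1.04 to 1.10) and Pkm 1.19 (1.14 to 1.25). Pklr was lower in replicate 2, at 0.703 (0.615 to 0.803), without reaching 2-fold, and so was Pfkl at 0.843 (0.736 to 0.965). With no fold limit 13 members passed higher in replicate 2 (17.2% of all genes) and 4, Aldoc, Gapdh, Pfkl and Pklr, higher in replicate 1 (15.2% of all genes).

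**Figure D4:**
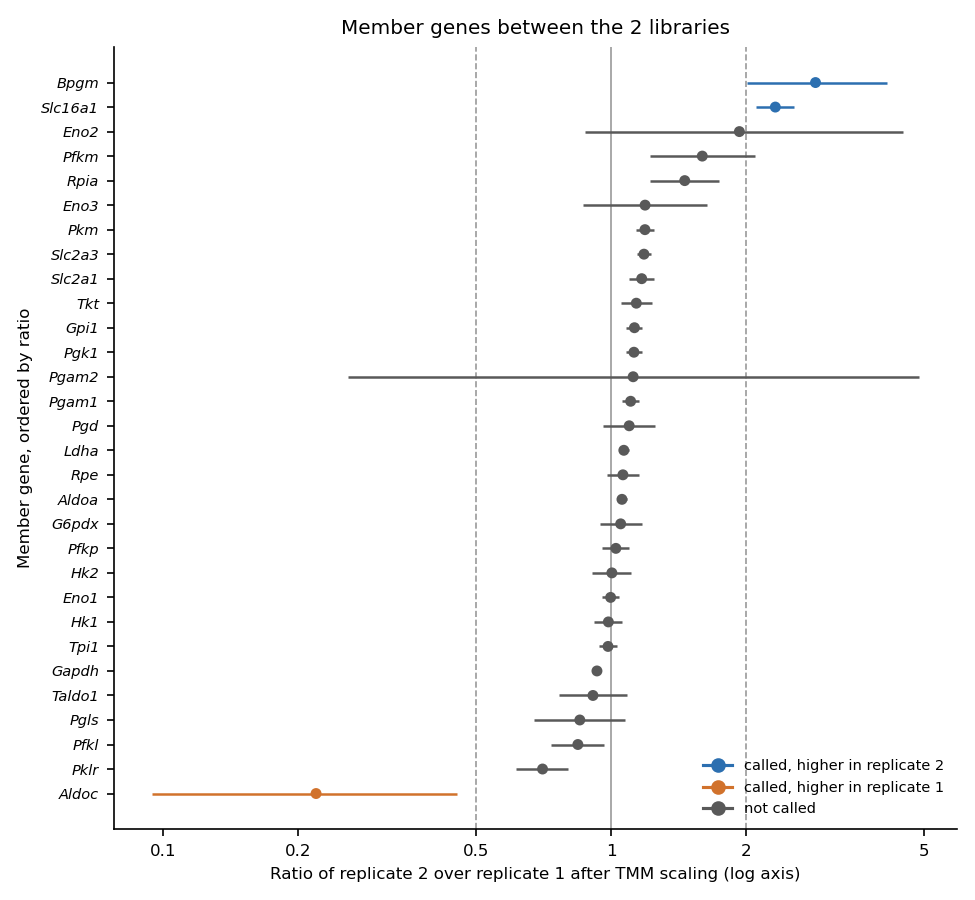
Ratio of replicate 2 over replicate 1 after TMM scaling, on a log axis, for the 30 members tested, with exact 95% intervals that cover counting error. Solid and dashed vertical lines mark 1 and the 2-fold limits. Bpgm (2.86) and Slc16a1 (2.33) lie above 2, Aldoc (0.219) lies below 0.5, and most members lie near 1.

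The calls depended on scaling and on the test. Scaled to total counts, which moves the median log2 ratio of all genes to -0.52, no member was called higher in replicate 2 (Bpgm 1.99, Slc16a1 1.62) and 2, Aldoc and Pklr, were called higher in replicate 1, with 3.33% and 8.58% of all genes called. Scaled to spike-in counts (514 and 10351), the median moved to -4.50, all 30 members were called higher in replicate 1, and so were 97.5% of all genes, with 0.302% higher in replicate 2. With edgeR's negative binomial exact test at a common coefficient of variation of 26.3%, no member was called in either direction (2.21% and 0.277% of all genes), while 3 members had an unadjusted p under 0.05. By that exact test the adjusted p was 0.321 for Bpgm, 0.607 for Slc16a1 and 0.148 for Aldoc. The coefficient of variation was estimated from the same 2 libraries taken as 1 group. Their differences therefore enter it, and the absence of calls is not an independent check.

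The promoter of Slc16a1 is shown because it was 1 of the 2 members called higher in replicate 2 and its window holds several of the motifs searched (RefSeq, GRCm38.p6, plus strand, chr3:104638414-104638663, ended before the start). Capitals mark, in order, the motif of GATA factors, the E-box and the box of KLF factors.
Slc16a1 promoter: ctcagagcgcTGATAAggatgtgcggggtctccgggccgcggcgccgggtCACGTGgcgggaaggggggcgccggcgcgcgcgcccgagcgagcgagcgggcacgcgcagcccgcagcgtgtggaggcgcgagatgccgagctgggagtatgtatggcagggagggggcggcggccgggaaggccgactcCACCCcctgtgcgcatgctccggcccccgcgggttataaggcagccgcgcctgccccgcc
Promoter windows of 300 bases (250 before and 50 after the start) were found in RefSeq for 31 members, 44 windows in all, and for 32851 windows of all genes. The motif of GATA factors was searched as AGATAA on either strand, where the first letter could also be T and the last also G, and was in 22.7% of the member windows and 29.8% of all windows, in 8 members (Aldoa, Eno3, G6pdx, Gapdh, Pfkm, Pklr, Pkm and Slc16a1). The KLF box CACCC was in 63.6% of member windows and 57.5% of all, the E-box CACGTG in 6.82% and 7.15%, and the letters CCAAT in 40.9% and 37.4%. ACGTG, the core of the HIF motif and also contained in CACGTG, was in 36.4% of the member windows (14 members, among them Pgk1, Ldha, Aldoa, Slc2a1, Hk1 and Hk2) and 19.6% of all windows. GTTANNNNNTAAC was in 1 member window, that of Pklr, and in 0.332% of all windows. In the Bpgm window CCAAT was found and no GATA, CACCC or E-box letters. That window (chr6:34476106-34476405) lies mostly after the start of the full-length Bpgm-201 at 34476207. Most of the 250 bases before the Bpgm-201 start were therefore not searched. A match describes the letters in a window and was not tied to binding.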

How the data were processed

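Total RNA sequencing of 2 libraries of 1 cell line was analysed from the gene and transcript tables. Per the file headers, the authors deposited expected counts (estimated, not normalised), TPM as maximum-likelihood and posterior mean estimates, FPKM, TPM credibility intervals, and each transcript's percent of its gene. The assembly (mm10) and annotation (GENCODE M4) are those of the deposited file records. Aligner and quantifier: not given in the sources used here. Names, types and exons were taken from GENCODE M21 on the same assembly by identifier (42462 of 43346 genes matched), and promoters from RefSeq (GRCm38.p6). Expected counts were rounded to whole numbers for tests. Numbered entries (3 and 7 counts) and spike-ins (514 and 10351) stayed out of the tests of genes. A count of 0 allowed up to 0.0948 and 0.0739 CPM (3 counts). Genes with 10 or more counts in the 2 libraries together were compared by a two-sided exact binomial test against TMM effective sizes (edgeR 4.0.16, R 4.3.3), with Benjamini-Hochberg adjustment over 11902 genes. edgeR's quasi-likelihood test has no residual degrees of freedom here. The test was tested on simulated data with counting error only (11908 genes tested): it called 46.0% of the 50 genes given a 2-fold change, 100% of those given 3-, 8- or 20-fold (50 per size), and 0.0342% of 11708 unchanged genes. The changed genes were drawn from those with at least 100 counts in the libraries together. These rates therefore do not cover lower members such as Aldoc, Eno2 and Pgam2, and a 2-fold change lies at the fold limit itself. Nothing in the labels says how the cultures were kept apart. The binomial p-values measure only counting error between these 2 libraries, not the spread between cultures. The members, the gene lists and the tests were chosen with earlier results of these data known. Some genes of the lists are not reported here and stay out of the list counts and sums. All 32 members were named, and of each other list up to 4 detected genes with the highest mean TPM and every gene called. Alternatives were other scalings, count filters, fold limits, tests, estimates (FPKM, posterior mean TPM, CPM), pseudocounts (0.1 in place of 1), coding transcripts only and leaving out a library. Scripts ran in Python 3.11.15 with pandas 2.3.3, NumPy 2.4.6 and SciPy 1.17.1; size factors came from DESeq2 1.42.0, alignments from BLAST 2.17.0 and plots from matplotlib 3.10.9.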

Additional observations from a re-analysis of the deposited data

How the results depend on the processing

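No paired analysis was possible because the labels give 1 group, and leaving out a library leaves no comparison between libraries. Over all genes, 605 were called higher in replicate 2 and 264 higher in replicate 1; these became 396 and 1021 with total counts, 36 and 11608 with spike-in counts, 356 and 84 with at least 50 counts, 263 and 33 with the negative binomial exact test, and 2045 and 1807 with no fold limit. The 2 and 1 members called became 0 and 2 with total counts, 0 and 30 with spike-in counts, 0 and 0 with the negative binomial exact test, and 13 and 4 with no fold limit; DESeq2 size factors and both count filters kept Bpgm, Slc16a1 and Aldoc. The leading isoenzyme stayed the leading one at all 7 steps under each alternative run. With counts and no length correction the Hk1 share was 65.3% and the Pgam1 share 99.87%; with posterior mean TPM the shares were 99.72% for Aldoa, 99.956% for Ldha and 99.63% for Pgam1; with coding transcripts only, the Pfkp share was 58.8%. The Bpgm minus Pgam1 difference was -5.39 with a pseudocount of 0.1 and -5.56 with the full-length Bpgm transcript only. The pentose phosphate minus glycolysis difference was -1.23 in CPM, -2.61 over detected members only and reversed to 0.0597 with coding transcripts only. The alternatives with coding transcripts and with the full-length Bpgm transcript were chosen after seeing the data. The cause of these differences was not tested. By definition, counting coding transcripts only takes retained-intron and decay models out of the level of a gene, as for Pfkp, Gapdh and Eno1. The Pfkp level then went from 29.8 to 11.1 TPM in replicate 1 and from 18.6 to 7.65 in replicate 2. Which genes moved the difference of the pentose phosphate and glycolysis medians was not tested. Depth limits the low members: Pgam2 (5 and 5 counts), Eno2 (11 and 19) and Aldoc (46 and 9) give wide intervals.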

Other observations

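Genes listed for oxygen and glucose sensing, with genes that respond to them, were largely present in both libraries. Of 21 such genes 15 were detected and 6 had 0 counts, and none of the 15 tested was called between libraries by the exact binomial test. Over all genes 5.08% were called higher in replicate 2 and 2.22% higher in replicate 1. Txnip, which curbs glucose uptake and is induced by glucose, had 297 and 172 TPM, above every member but Gapdh, Aldoa and Ldha. Bnip3l, the mitochondrial receptor through which maturing red cells clear their mitochondria, had 172 and 115 TPM, and its relative Bnip3 had 57.2 and 44.5 TPM. Coding transcripts carried 55.5% and 67.2% of the Txnip TPM and 21.0% and 20.5% of the Bnip3l TPM (36.1 and 23.5 TPM). Arnt, the shared partner of the HIF factors, had 35.6 and 21.9 TPM. The median log2 ratio of the 15 tested was 0.11, against 0.12 for the members and -0.00 for all genes. Pygm, the muscle glycogen phosphorylase that feeds glycolysis, had 2 and 70 counts (0.03 and 0.96 TPM) and was called higher in replicate 2, as Slc2a4 and Pcx were, while Ckm, Acta1 and Myog of the same muscle list had 0 counts.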
